A study of Mus musculus with 109 samples.

Results

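The cells described here are single mouse cerebellar cells that had almost no Mki67 RNA and either much or very little Ccnd2 RNA. They were chosen from 109 single cells, each with its own Smart-seq library, which were prepared from P7 cerebella by Percoll density gradient centrifugation and captured on C1 Fluidigm chips. The labels give the strain as C57BL/6, while the animal methods of the study name ICR pups. Nothing was given or deleted in these animals, and the labels name neither the animal nor the sex of a cell. The title of each cell carries the number of a library group, and there were 6 such groups of 18 or 19 cells. Counts were turned into CPM, the share of a cell's total count multiplied by 1000000. Cells with a total under 1000000 or with more than 10000 detected genes were dropped, which left 106 cells. Of these, 75 had Mki67 below 10 CPM. The 26 cells among them with Ccnd2 at 500 CPM or more are called Ccnd2-high cells, and the 35 cells with Ccnd2 below 50 CPM are called Ccnd2-low cells, so that 61 of 109 cells entered the comparison. The 14 cells between these limits were left out of it, and the 31 cells with Mki67 at 10 CPM or more are called cycling cells.

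Cerebellar granule cell progenitors (GCPs) divide in the outer external granular layer (EGL) under the influence of Sonic hedgehog (SHH), leave the cell cycle, move through the inner EGL and migrate inward as granule cells (GCs). Ccnd2 encodes cyclin D2, a D-type cyclin that activates Cdk4 and Cdk6 in G1 and that is produced by dividing GCPs. Mki67 encodes Ki67, a nuclear protein of cycling cells whose level is lowest in quiescence and early G1. A cell with Ccnd2 RNA but without Mki67 RNA may thus be in G1 or may have left the cycle a short time before. The comparison asked in which other genes such cells differed from cells that held little of either RNA.

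Ccnd2 and Mki67 chose the cells, and their values are given only to describe the classes. Ccnd2 ran from 597 to 14526 CPM in the Ccnd2-high cells, with a median of 2444, and from 0.643 to 45.5 CPM in the Ccnd2-low cells, with a median of 4.83. The lowest Ccnd2-high cells had 597 and 619 CPM, and the next cells below the limit had 423 and 394. The highest Ccnd2-low cells had 45.5 and 45.3 CPM, and the next cells above the limit had 52.7 and 54.7. The highest Mki67 values below the limit were 9.27 and 5.83 CPM, and the lowest values above it were 21.3 and 132. Every Ccnd2-low cell had at least 1 Ccnd2 count, and 8 Ccnd2-high and 8 Ccnd2-low cells had no Mki67 count. Traces of RNA were therefore common, and a gene is called detected in a cell below only at 10 CPM or more.

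**Figure D1:**
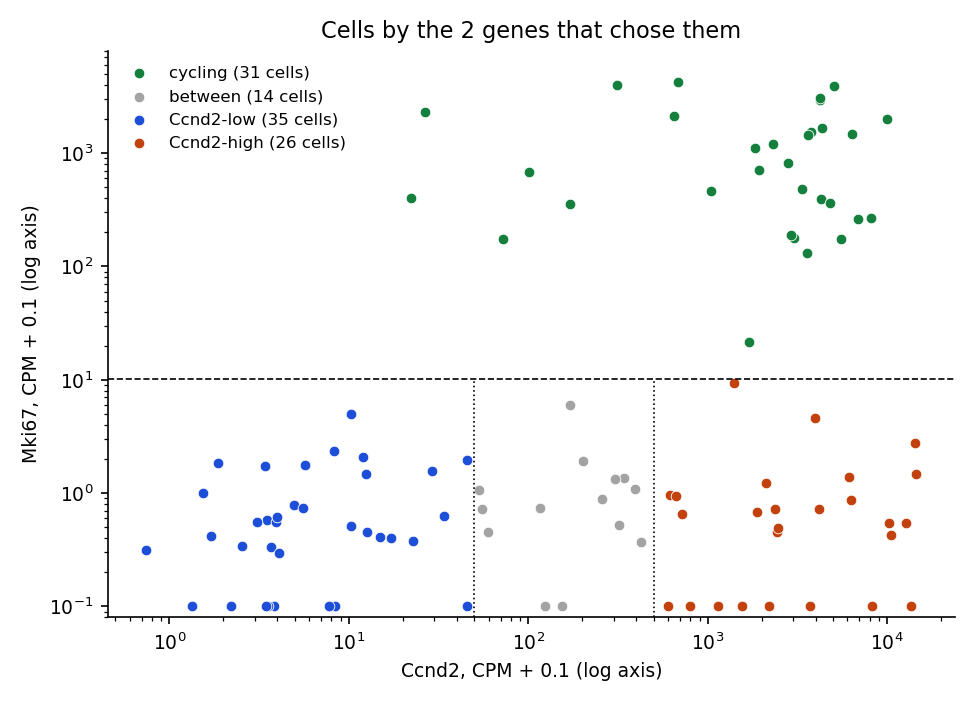
Ccnd2 against Mki67 in the 106 cells kept, in CPM plus 0.1 on log axes, with 1 point per cell. The dashed line marks 10 CPM of Mki67 and the dotted lines mark 50 and 500 CPM of Ccnd2; the Ccnd2-high cells lie at the lower right, and most of the 31 cycling cells lie above them at like Ccnd2 levels.

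Both classes came from all 6 library groups. The groups held 6, 7, 2, 2, 3 and 6 Ccnd2-high cells and 3, 4, 5, 12, 7 and 4 Ccnd2-low cells. Total counts ran from 1275466 to 8616017 in Ccnd2-high cells and from 1957074 to 5798794 in Ccnd2-low cells. For each library group the counts of its Ccnd2-high cells were added up, and so were those of its Ccnd2-low cells. These 12 sums of 5145218 to 47777483 counts were the units of the tests, since cells of 1 library group are not replicates of a class. Whether the library groups came from separate animals is not given in the sources used here, so the p-values measure the spread between library groups. Means over the cells of each library group were compared with an exact two-sided sign-flip test, which cannot go below p = 0.031 with 6 groups. The difference in total counts between the classes was 486898 ± 1507743 counts (Ccnd2-high minus Ccnd2-low, SD, n = 6, exact p = 0.625), and the difference in detected genes was 252 ± 459.9 genes (exact p = 0.1875). Neither was larger than the spread between the 6 library groups. Without library group 3 the difference in detected genes was 412 ± 269.994 genes, higher in 5 of 5 groups (exact p = 0.0625, the lowest that 5 groups can give).

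Lists of marker genes were read to check what the cells were. Each of the 26 Ccnd2-high cells had between 3 and 9 of 10 granule lineage markers (such as Neurod1, Pax6 and Dcx) at 10 CPM or more, and each of the 35 Ccnd2-low cells had between 2 and 9, with a median of 7 in both. Markers of microglia, of endothelium and mural cells and of erythroid cells were near 0, with at most 1 cell of a class at 10 CPM or more of any of them. Astroglial markers summed to 0.515 to 34437 CPM in Ccnd2-high cells (median 622) and to 0.277 to 5181 CPM in Ccnd2-low cells (median 191). At least 4 of the 11 astroglial markers reached 50 CPM in 1 Ccnd2-high cell and in 2 Ccnd2-low cells. Markers of GABAergic neurons summed to 0.246 to 3333 CPM in Ccnd2-high cells (median 442) and to 0 to 10078 CPM in Ccnd2-low cells (median 25.7), and markers of the oligodendrocyte lineage had medians of 24.7 and 2.26 CPM. Markers of Purkinje cells and of unipolar brush cells had medians below 1 CPM in both classes. Their highest sums were 1199 and 1326 CPM in Ccnd2-high cells and 1735 and 3256 CPM in Ccnd2-low cells. No unipolar brush cell marker reached 10 CPM in 18 of 26 Ccnd2-high and 23 of 35 Ccnd2-low cells. The part of these cell types in the differences below was not tested.

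The label of non-cycling cells was only partly borne out in the Ccnd2-high class. The limits in this paragraph were set after the values had been seen. Of 27 genes of DNA replication and S phase, at least 10 were detected in 8 of 26 Ccnd2-high cells (30.8%, 95% Wilson interval 16.5 to 49.99%) and in 0 of 35 Ccnd2-low cells (an upper limit of 8.57%, from 3 cells of 35). Among the 31 cycling cells there were 18 such cells. At least 3 of 20 genes of G2/M and mitosis were detected in 9 Ccnd2-high cells, in 3 Ccnd2-low cells and in 26 cycling cells. The 8 replication-rich cells came from 4 of the library groups, 4 of them from library group 6, and their Mki67 stayed at 4.52 CPM or lower. Intervals and limits cover counting error over cells only and treat cells of 1 library group as independent.

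No gene passed the edgeR or the limma test between the classes. In edgeR's quasi-likelihood test on the sums, 0 of 5462 genes (0%) had an adjusted p below 0.05, and the lowest adjusted p, shared by Kcna1 and Enc1, was 0.157. At an unadjusted p below 0.05 there were 338 genes (6.19%), of which 169 were higher and 169 lower in Ccnd2-high cells. limma on the mean log2(CPM + 1) of each class and library group, with the library group as a block, also called 0 genes (0%), with 448 (8.2%) below an unadjusted p of 0.05. DESeq2 on the sums called 749 of 7198 genes (10.4%), 351 higher (4.88%) and 398 lower (5.53%). The common biological coefficient of variation of the sums in edgeR was 191%. The directions and values below are therefore a description of these cells, not calls.

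Genes of DNA replication gave the largest median difference among lists with more than 10 tested members. Of the 27 genes, 23 were detected in a larger share of Ccnd2-high than of Ccnd2-low cells and 2 in a smaller share. Of the 15 that passed the filter on low counts, 12 were higher and 3 lower in Ccnd2-high sums, with a median edgeR log2 difference of 2.64 against 0.01 over all genes tested, and 0 of 15 were called by edgeR or limma. The filter kept genes with enough counts in the sums of a single class. Members of this and the other lists could thus pass through the class where they were higher. Counts and medians of tested members are therefore a description only. DESeq2 called 9 higher and 1 lower of 19, against 10.4% of all genes. It also called 3 of 11 partners and brakes of the D cyclins, 2 of 8 GCP and SHH genes and 2 of 7 G2/M genes, all higher. In further lists it called 2 of 75 ribosomal protein genes, 2 of 20 cytoskeleton genes and 0 of 18 synapse genes.

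Pcna, the sliding clamp of DNA polymerase (GRCm38, chromosome 2, 132249162 to 132253314, minus strand), was detected in 16 of 26 Ccnd2-high and 6 of 35 Ccnd2-low cells. Its sums ran from 23.9 to 573 CPM with a median of 178 in the Ccnd2-high class and from 1.61 to 49.5 CPM with a median of 5.87 in the Ccnd2-low class. The ranges overlapped, Pcna was higher in 5 of 6 library groups, and the log2 difference of 4.19 ± 1.65 (SE) did not pass the edgeR test (adjusted p = 0.723).

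Other members followed the same order. Uhrf1, which couples replication to the upkeep of DNA methylation, was detected in 10 Ccnd2-high cells and 1 Ccnd2-low cell. Its Ccnd2-high sums had a median of 171 CPM and ran from 1.65 to 414, against a median of 0.266 and a highest value of 34.9 in Ccnd2-low sums. Uhrf1 was higher in 6 of 6 library groups. Mcm2 and Mcm4, subunits of the replicative helicase, were detected in 9 and 11 Ccnd2-high cells and in 1 and 3 Ccnd2-low cells. The edgeR adjusted p-values of Uhrf1, Mcm2 and Mcm4 were 0.763, 0.669 and 0.724.

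The values of the list without the replication-rich cells are a description only. These cells were chosen on the same genes, so leaving them out had to lower the list. In an alternative added after the data had been seen, the 8 Ccnd2-high cells with at least 10 detected replication genes were left out. Then 3 of 9 tested replication genes were higher and 6 lower, with a median log2 difference of -0.41. The median cell level of the list, the mean log2(CPM + 1) over its genes, was 4.89 in the 8 cells, 0.70 in the other 18 Ccnd2-high cells, 0.67 in the Ccnd2-low cells and 3.01 in the cycling cells. All 8 held Pcna at 10 CPM or more, as did 8 of the other 18.

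G2/M and mitosis genes were sparse in both classes. Of 20 genes, 15 were detected in a larger share of Ccnd2-high cells and 1 in a smaller share, and only 7 passed the filter, 5 of them higher. These 7 could also have passed through the class where they were higher. Tpx2, a spindle assembly factor, was detected in 4 Ccnd2-high cells and 1 Ccnd2-low cell. Ccnb2, which encodes cyclin B2, was detected in 3 and 0 cells, and Cenpf, a kinetochore protein, in 6 and 0. Top2a, a topoisomerase of replicating and dividing cells, was detected in 9 of 26 Ccnd2-high and 5 of 35 Ccnd2-low cells, against 24 of 31 cycling cells. None of these 4 genes was called by edgeR (adjusted p between 0.669 and 0.807).

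Ribosomal protein genes stood higher in Ccnd2-high cells in every library group. They took 0.788% of counts in Ccnd2-high cells and 0.530% in Ccnd2-low cells as means of library groups, a difference of 0.258 ± 0.118 percentage points (SD, n = 6). This share was higher in 6 of 6 groups (exact p = 0.031, the lowest possible here, and adjusted p = 0.125 over 4 values). The mean log2(CPM + 1) of the 85 genes was 2.85 to 3.61 in the library groups of the Ccnd2-high class and 2.29 to 2.70 in those of the Ccnd2-low class, so the groups did not overlap. A Ccnd2-high cell had a median of 41 of the 85 genes detected and a Ccnd2-low cell 27.

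Of 72 tested ribosomal protein genes, 58 were higher and 14 lower, with a median log2 difference of 0.85, and 68 of 85 were detected in a larger share of Ccnd2-high cells. Rps21 was the only member whose sums did not overlap (7 of all 5462 genes, 0.128%, lay wholly higher), at 24.1 to 48.4 CPM in Ccnd2-high and 0.850 to 20.1 CPM in Ccnd2-low sums. Rpl17 and Rpl28 were higher in 4 and 5 of 6 library groups and Rpl21 was lower in 5. No ribosomal protein gene was called by edgeR (adjusted p = 0.759 for Rpl21, the lowest p of the list). Many ribosomal protein genes have near-identical copies in the genome, and Rpl17 and Rpl21 also span small RNA genes of their own strand, so their single values are uncertain. The list was also higher without the 8 replication-rich cells, with 48 of 67 tested genes higher. In cycling cells its median cell level was 3.77, against 3.15 in Ccnd2-high cells without these 8 and 2.43 in Ccnd2-low cells.

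**Figure D2:**
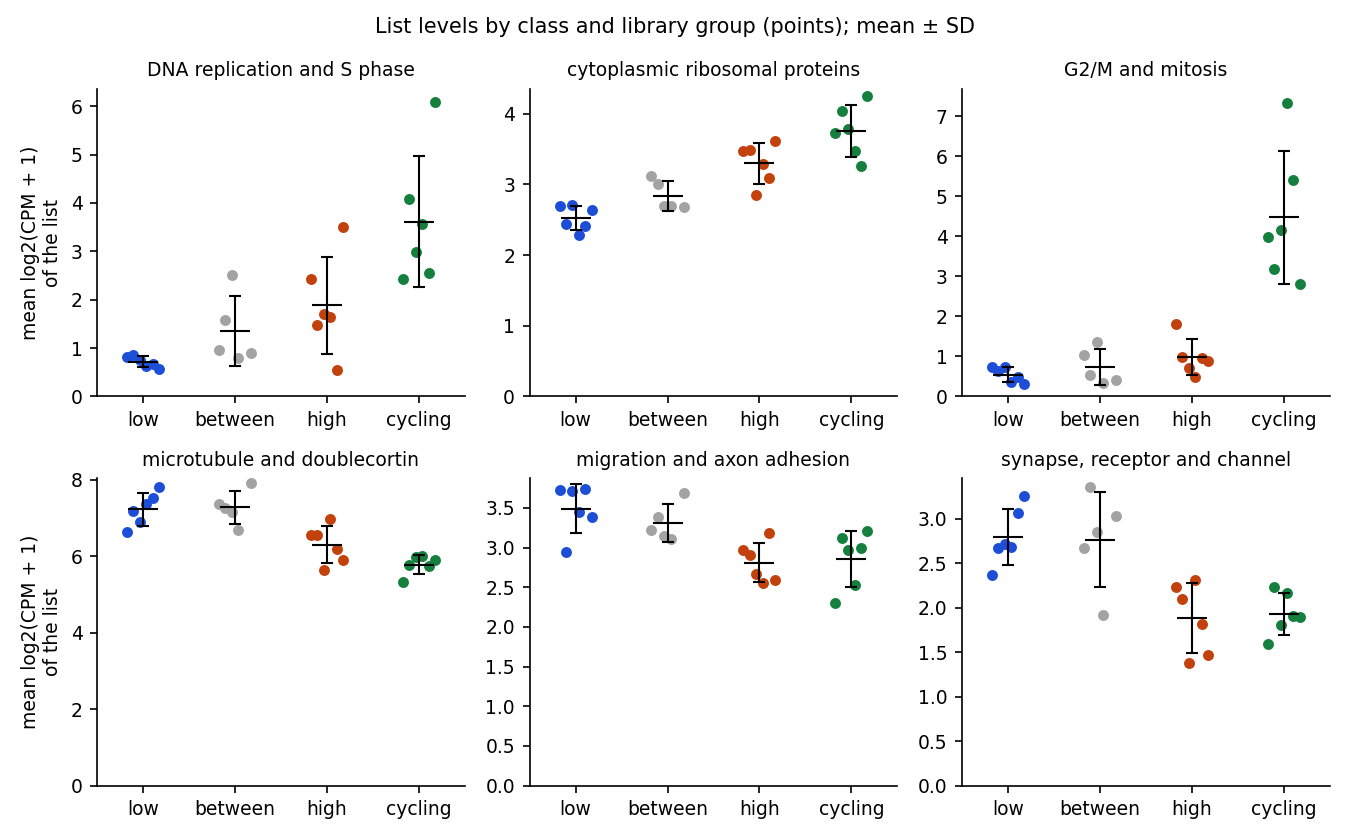
Mean log2(CPM + 1) of 6 gene lists for each class and library group (points) with the mean ± SD over library groups (bars); library group 5 held no cell between the Ccnd2 limits. Ribosomal protein levels of Ccnd2-high and Ccnd2-low groups do not overlap, and replication genes spread widely among Ccnd2-high groups. The 3 lists of neuronal genes are lower in the Ccnd2-high than in the Ccnd2-low cells of each library group. Across library groups, the cytoskeleton and migration levels of these classes overlap.

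Partners and brakes of the D cyclins showed no common direction. Of 10 tested genes, 6 were higher and 4 lower, with a median log2 difference of 0.43, and without the 8 replication-rich cells 3 of 8 were higher and 5 lower. Without library group 1 the list had 4 higher and 6 lower, with a median of -0.36, and without library group 5 the median was -0.04. Cdk6, a kinase that D cyclins activate, was detected in 14 of 26 Ccnd2-high and 6 of 35 Ccnd2-low cells, and in 18 of 31 cycling cells. Its sums ran from 60.6 to 648 CPM with a median of 417 in Ccnd2-high cells and from 0.272 to 101 CPM with a median of 13.8 in Ccnd2-low cells. Cdk6 was higher in 6 of 6 library groups, with a log2 difference of 3.27 ± 1.52 (SE, edgeR adjusted p = 0.791). E2f3, a transcription factor of the G1 to S transition, was detected in 2 and 3 cells, and its largest Ccnd2-low sum was 735 CPM while the median was 1.58.

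Genes of GCPs and of SHH signalling were mostly detected in more Ccnd2-high cells, but their fitted differences had no direction that held across fits. Of 13 genes, 12 were detected in a larger share of Ccnd2-high than of Ccnd2-low cells and 0 in a smaller share. Over all 5462 tested genes, which leave out low genes that the list includes, these counts were 2901 and 2499. The list level was higher in 4 of 6 library groups, by 0.53 ± 0.89 (SD). Of 6 tested genes, 2 were higher and 4 lower in edgeR (median log2 difference -1.62), while 5 were higher and 1 lower in limma (median 0.23). Without library group 4, edgeR gave 4 higher and 2 lower with a median of 1.16, and without the 8 replication-rich cells 3 higher and 2 lower. Sfrp1, a secreted Wnt regulator made by GCPs, was detected in 14 Ccnd2-high and 9 Ccnd2-low cells. Its sums had medians of 763 and 9.75 CPM, and its log2 difference was 3.45 ± 1.49 (SE, edgeR adjusted p = 0.756). Atoh1, the transcription factor that maintains GCPs, was detected in 3 Ccnd2-high cells and 5 cycling cells and had no count in any Ccnd2-low sum. It did not pass the filter, and 0 of 35 cells leaves an upper limit of 8.57%. Mycn, a target of SHH, was lower in 5 of 6 library groups, with median sums of 43.2 and 313 CPM, and was detected in 9 and 12 cells.

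Genes of the neuronal cytoskeleton were lower in Ccnd2-high cells. Of 20 genes of microtubules and doublecortin, all 20 were tested and 16 were lower, with a median log2 difference of -0.47, and the mean level of the list was lower in 6 of 6 library groups by 0.93 ± 0.68 (SD) on the log2(CPM + 1) scale. Dcx, the microtubule protein of migrating neurons (chromosome X, 143855842 to 143933311, minus strand), was detected in 24 of 26 Ccnd2-high and 33 of 35 Ccnd2-low cells. Its sums ran from 364 to 3266 CPM with a median of 1182 in the Ccnd2-high class and from 684 to 4171 CPM with a median of 3802 in the Ccnd2-low class. Dcx was lower in 5 of 6 library groups, by 1.27 ± 0.59 on the log2 scale (SE, edgeR adjusted p = 0.791). Pcna and Dcx were detected together in 14 of 26 Ccnd2-high cells (53.8%, 95% Wilson interval 35.5 to 71.2%) and in 6 of 35 Ccnd2-low cells (17.1%, 8.10 to 32.7%).

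Mapt, which encodes the axonal protein tau, differed more in the share of cells than Dcx did. It was detected in 8 Ccnd2-high and 22 Ccnd2-low cells, and its sums had a median of 62.1 CPM (0.583 to 175) against 609 (106 to 1970.2). Mapt was lower in 6 of 6 library groups, with a log2 difference of -3.62 ± 1.38 (SE, edgeR adjusted p = 0.719). Only 3 of 31 cycling cells held it. Map1b, which binds microtubules in growing axons, was detected in every cell of both classes, with median sums of 4260.1 and 8292 CPM. Stmn4, of the stathmin family that destabilises microtubules, was detected in 0 of 26 Ccnd2-high cells, an upper limit of 11.5%, and in 9 of 35 Ccnd2-low cells, and its sums did not overlap (17 of all 5462 genes, 0.311%, lay wholly lower).

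Without the 8 replication-rich cells, 11 of the 20 cytoskeleton genes were lower and 9 higher, with a median log2 difference of -0.14. The median cell level of the list was 6.20 in the 8 cells, 6.46 in the other 18 Ccnd2-high cells and 7.20 in Ccnd2-low cells.

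Genes of migration and axon adhesion were mostly lower. Of 16 tested genes, 11 were lower and 5 higher, with a median log2 difference of -1.04, and the list level was lower in 6 of 6 library groups by 0.68 ± 0.36 (SD). Unc5c, a receptor of netrins, was detected in 13 of 26 Ccnd2-high and 28 of 35 Ccnd2-low cells, and in 21 of 31 cycling cells. Its sums had medians of 342 and 1472 CPM (edgeR adjusted p = 0.842). Cntn1 and Astn2, adhesion proteins of axons and of migrating neurons, were detected in 5 and 5 Ccnd2-high cells and in 12 and 13 Ccnd2-low cells. Itgb1, an integrin, went the other way in its log2 difference of 4.20, but 1 Ccnd2-high sum of 6090.3 CPM stood against a median of 43.9. Sema6a, a semaphorin of migrating GCs, was detected in 23 Ccnd2-high and 32 Ccnd2-low cells, with a log2 difference of 0.03 ± 0.75 (SE, edgeR adjusted p = 0.999), positive in 3 library groups and negative in 3. Without the 8 replication-rich cells, 9 of the 16 tested genes were lower and 7 higher. Without library group 3 or 5, 9 of 17 were lower, with medians of -0.61 and -0.42.

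Genes of synapses, receptors and channels were mostly lower. Of 17 tested genes, 15 were lower and 2 higher, in edgeR and in limma, with median log2 differences of -1.05 and -1.27. The list level was lower in 6 of 6 library groups by 0.91 ± 0.64 (SD), and a Ccnd2-high cell had a median of 5.5 of 26 genes detected against 8 in a Ccnd2-low cell. Grin2b, an NMDA receptor subunit, was detected in 8 of 26 Ccnd2-high cells, 20 of 35 Ccnd2-low cells and 3 of 31 cycling cells. Gria2, an AMPA receptor subunit, was detected in 15 and 29 cells of the first 2 classes, with median sums of 228 and 691 CPM. Syt1, the calcium sensor of synaptic vesicles, was detected in 5 and 11 cells. None was called (edgeR adjusted p between 0.808 and 0.875). Without the 8 replication-rich cells, 14 of 18 tested genes were lower.

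Transcription factors of the granule lineage and early neuronal genes had no common direction. Of 18 tested factors, 12 were higher and 6 lower with a median log2 difference of 0.14, while without library group 5, 7 were higher and 11 lower. The list level was higher in 3 and lower in 3 library groups. Neurod1, a proneural factor, was detected in all 26 Ccnd2-high and in 33 of 35 Ccnd2-low cells, with a log2 difference of 0.12 ± 0.61 (SE). Pax6 and Meis1, factors of the rhombic lip lineage, were detected in 18 and 20 Ccnd2-high and in 25 and 28 Ccnd2-low cells, and their differences were -0.50 ± 0.92 and 0.81 ± 0.92. Nfia was detected in every cell of both classes and differed by 0.43 ± 0.43. Pbx3, Nhlh2 and Zic4 had the other low p-values of the list, with edgeR adjusted p between 0.872 and 0.922. Tubb3, a neuronal tubulin, differed by -0.15 ± 0.84, and by -1.16 in limma. Rbfox3, which encodes NeuN, differed by -0.23 ± 1.36, and by -1.29 with the library group as a block in edgeR, where Pax6 differed by -1.13. Tubb3 and Neurod1 overlap another gene on the same strand, so part of their counts may belong to it.

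Single Notch pathway genes were mostly detected in few cells, with medians over genes of 11.5% of Ccnd2-high and 2.86% of Ccnd2-low cells. Of 20 genes, 14 were detected in a larger share of Ccnd2-high cells and 4 in a smaller share. Among the 5462 tested genes these counts were 2901 and 2499, but the 20 include genes that did not pass the filter. The list level was higher in 5 of 6 library groups, by 0.28 ± 0.42 (SD). Of 11 tested, 6 were higher and 5 lower. Notch2, the receptor studied in GCPs, was detected in 7 of 26 Ccnd2-high, 3 of 35 Ccnd2-low and 15 of 31 cycling cells, with a log2 difference of 2.63 ± 1.97 (SE, edgeR adjusted p = 0.891). Notch1, the Notch target Hes1 and the ligand Jag1 were detected in 1, 1 and 2 Ccnd2-high cells and in 0, 0 and 1 Ccnd2-low cells, and none of them passed the filter. Maml3, a coactivator of Notch, was detected in 6 and 1 cells and in 0 of 31 cycling cells (edgeR adjusted p = 0.669). Immediate early genes, which cell dissociation can induce, were tested in 6 cases, 2 higher and 4 lower. Jund and Egr1 were detected in 1 and 4 Ccnd2-high cells and in 5 and 7 Ccnd2-low cells.

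**Figure D3:**
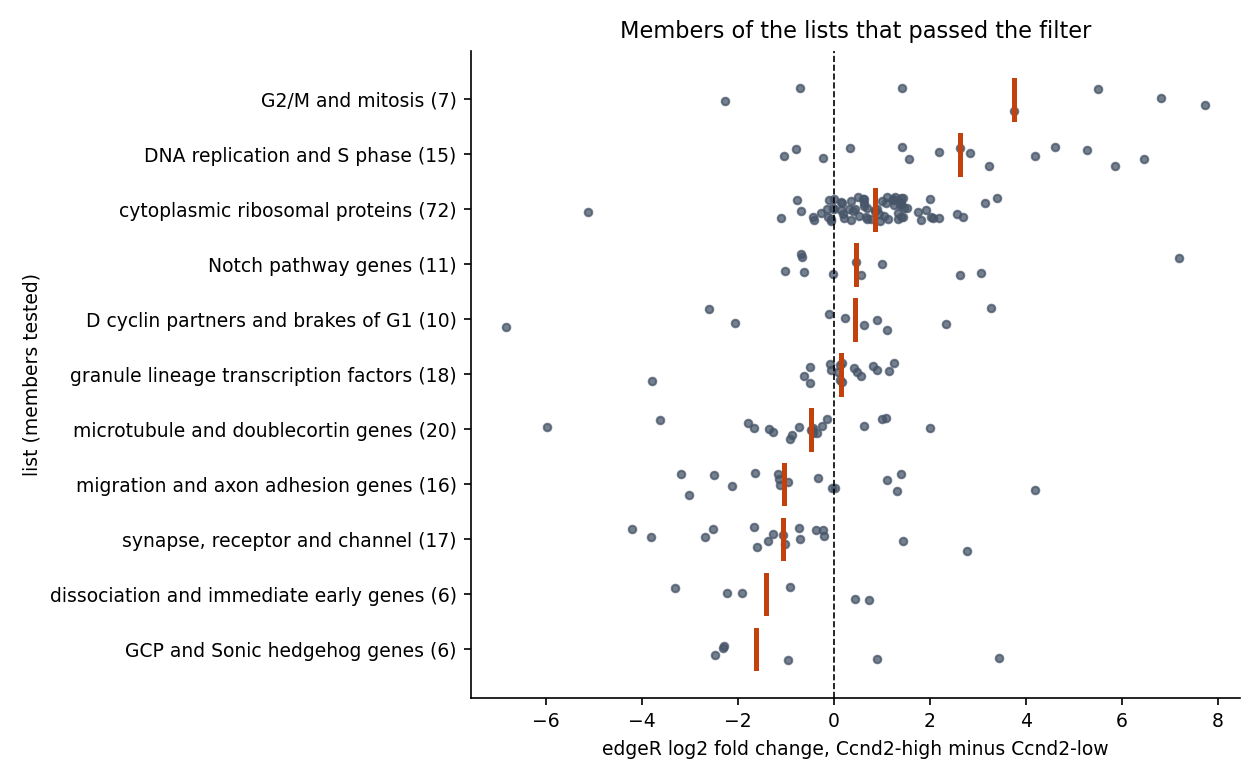
Each point is 1 gene of the named list that passed the filter, at its edgeR log2 fold change of Ccnd2-high minus Ccnd2-low sums; red bars are list medians and the dashed line is the median of all 5462 genes, 0.01. Replication and ribosomal protein genes lie mostly to the right and synapse genes mostly to the left, while no single point passed the edgeR test.

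Across the whole table, 73 of 5462 genes (1.34%) were higher and 111 (2.03%) were lower in the Ccnd2-high sums of all 6 library groups. Genes with the smallest p in each direction are named here, and none was called by edgeR. Draxin, a secreted repellent of growing axons (chromosome 4, 148098437 to 148130698, minus strand), was detected in 9 of 26 Ccnd2-high cells, 16 of 31 cycling cells and 0 of 35 Ccnd2-low cells. Its Ccnd2-high sums had a median of 11.8 CPM and ran from 3.34 to 758, and its Ccnd2-low sums ran from 0.0361 to 0.658 (edgeR adjusted p = 0.447). Of the 8 replication-rich cells, 6 held Draxin. Stard4, which carries cholesterol between membranes, was detected in 7 Ccnd2-high and 2 Ccnd2-low cells, with median sums of 283 and 0.535 CPM. Ehd1, of endocytic recycling, was detected in 10 and 6 cells, and its sums of 8.69 to 722 CPM lay above the Ccnd2-low sums of 0.469 to 7.22.

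The other 5 higher genes were detected in few cells. Pxmp4, of the peroxisomal membrane, was detected in 3 Ccnd2-high cells and 0 Ccnd2-low cells. Nme2, a nucleoside diphosphate kinase whose gene overlaps another on the same strand, was detected in 6 and 1 cells, and Ctnnal1, a relative of alpha-catenin, in 6 and 2. The predicted genes Gm12174 and Gm9755 stayed below 5 CPM in every sum.

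Kcna1, which encodes the voltage-gated potassium channel Kv1.1 (chromosome 6, 126640397 to 126646384, minus strand), had the smallest p of all genes (4.93e-05, edgeR adjusted p = 0.157). It was detected in 0 of 26 Ccnd2-high cells, 10 of 35 Ccnd2-low cells and 1 of 31 cycling cells. Its sums were 0.210 CPM or lower in all Ccnd2-high groups and 27.7 to 960 CPM, with a median of 126, in Ccnd2-low groups, so they did not overlap.

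Further lower genes were detected in a smaller share of Ccnd2-high than of Ccnd2-low cells. Prrt1, a partner of AMPA receptors, was detected in 0 Ccnd2-high and 6 Ccnd2-low cells. Avl9, of the late secretory pathway, was detected in 0 and 11 cells, with Ccnd2-low sums of 8.88 to 797 CPM. Pid1 was detected in 1 and 8 cells, Zyg11b in 2 and 10, Pdcd2l in 0 and 6 and Pcnx in 6 and 13. The edgeR adjusted p of these 6 genes lay between 0.181 and 0.447. In all, the sums of 7 genes (0.128%) lay wholly higher and those of 17 genes (0.311%) wholly lower in the Ccnd2-high class.

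**Figure D4:**
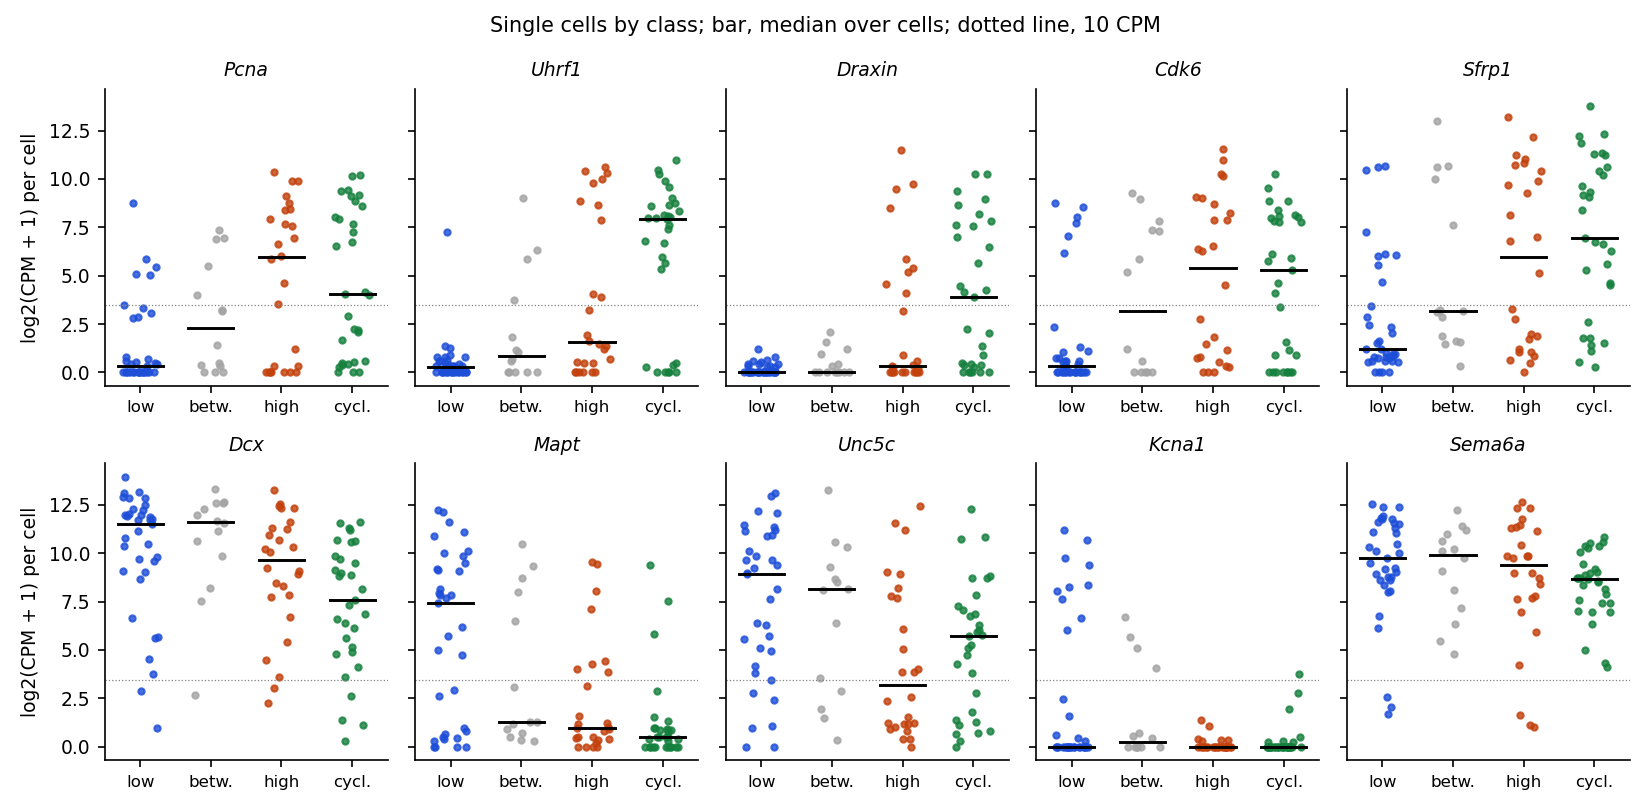
log2(CPM + 1) of 10 genes in single cells of the 4 classes (35 Ccnd2-low, 14 between the limits, 26 Ccnd2-high and 31 cycling cells), with the median over cells as a bar and 10 CPM as a dotted line. Pcna, Uhrf1, Draxin and Cdk6 are detected in more Ccnd2-high than Ccnd2-low cells, Mapt, Unc5c and Kcna1 in fewer, and Sema6a in nearly all cells of every class.

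The Ccnd2-high cells were also set against the cycling cells, whose Ccnd2 was of like size (median 3043 CPM). The same Ccnd2-high sums enter both comparisons. The cycling cells were chosen on Mki67, which is made with the genes of mitosis, so their mitotic genes are no independent result. edgeR called 0 of 6222 genes (0%), with 406 (6.53%) below an unadjusted p of 0.05. limma called 17 genes (0.273%), with 777 (12.5%) below an unadjusted p of 0.05. The 17 were all lower in Ccnd2-high cells, among them Smc2, Ezh2, Top2a, Ccna2 and Cenpf. DESeq2 called 789 of 7829 genes (10.1%), 208 higher (2.66%) and 581 lower (7.42%). In the sums of all 6 library groups, 36 genes (0.579%) were higher and 273 (4.39%) lower in Ccnd2-high cells.

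All 18 tested genes of G2/M and mitosis were lower in Ccnd2-high than in cycling cells, with a median log2 difference of -4.06. Tacc3, Casc5 and Bub1, proteins of the spindle and kinetochore, were detected in 0 Ccnd2-high cells and in 18, 16 and 14 of 31 cycling cells. Cdca3 and Ccdc18 were detected in 0 Ccnd2-high cells and in 17 and 6 cycling cells. These 5 had the lowest p among genes lower in all 6 library groups, each with an edgeR adjusted p of 0.103. Of 23 tested replication genes, 7 were higher and 16 lower in edgeR, and 1 was higher and 22 lower in limma. Their limma median was -2.08, against -0.42 over all genes, of which 4301 of 6222 were lower. Pcna did not differ by more than its error in this comparison, with median sums of 178 and 225 CPM and a log2 difference of -0.0016 ± 1.09 (SE).

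Among the neuronal lists, cytoskeleton genes were mostly higher than in cycling cells. Synapse genes were more often higher than lower in both fits, but not in list level or in share of cells. Of the cytoskeleton genes, 17 of 19 were higher than in cycling cells, and of the synapse genes 14 of 17 were higher, with median log2 differences of 0.90 and 1.04 against 0.14 for all genes. In limma these counts were 14 of 19 and 10 of 17, against 1921 of all 6222 genes. The mean level of the cytoskeleton list over library groups was 6.30 in Ccnd2-high and 5.79 in cycling cells, while that of the synapse list was 1.89 and 1.93. Of the synapse genes, 10 were detected in a larger share and 13 in a smaller share of Ccnd2-high cells. Over all genes tested, which leave out low genes that the list includes, these counts were 1824 and 4328. Hmgcs1, of cholesterol synthesis, had sums of 767 to 3427 CPM against 174 to 614. Reln, which encodes the secreted protein reelin, had sums of 376 to 2652 CPM against 87.2 to 259. Maged1 and Kif21b, a neuronal kinesin, were also higher in 6 of 6 library groups. None of these 4 was called by edgeR (adjusted p between 0.414 and 0.476).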

How the data were processed

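The authors aligned the reads of each cell to mm10 with STAR 2.4.1d, counted reads per gene with HTSeq 0.6.1 and deposited raw counts, without normalization. The annotation and strand setting are not given in the sources used here. The table held 15973 genes. Cells were classed as described above, and the members, gene lists and named genes were chosen with earlier results of these data known. Positions and overlaps are from the GENCODE annotation of GRCm38.

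Counts were summed per class and library group, Ccnd2 and Mki67 were removed, low genes were filtered with filterByExpr, and sums were compared with the quasi-likelihood test of edgeR 4.0.16 (R 4.3.3) after TMM normalization, with Benjamini-Hochberg adjustment. Fitted differences of genes near 0 counts depend on the prior count of 0.125. limma 3.58.1 was used on mean log2(CPM + 1) and DESeq2 1.42.0 on the sums. Named genes were those the study names for expression, the 8 higher and 8 lower genes (5 and 5 against cycling cells) with the smallest p among those that differed the same way in all library groups, and up to 4 genes per list with the smallest p, of which some are not reported here; Enc1, Rps21 and genes named as called by limma were chosen after their values were seen. Alternatives were other tools, scaling, filters, class limits, thinning to 1000000 counts per cell and leaving out each library group. On simulated sums, the edgeR and limma fits recovered changed genes at a low spread and almost none at a spread near that observed. A count of 0 by edgeR thus does not show that the classes are alike. In the simulation limma took log2(CPM + 1) of sums and not means over cells, so its recovery on the means used here was not tested.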

Additional observations from a re-analysis of the deposited data

Results flagged for a closer look

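In 154 sets of 6 library group means (levels of named genes and lists, and totals, in each class), 22 had 1 library group far from the other 5 by Dixon's criterion, where chance gives about 1 in 20 for normally distributed values. Genes at 0 in 5 of the groups, such as Notch1, Hes1 and Prrt1, meet it by construction, so the number says nothing about an excess. No cause was tested. Gene values are mean log2(CPM + 1).

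In the Ccnd2-high class, the mean total count was 7331608 in library group 4, which held 2 such cells, and at most 4161166 in the others. Sfrp1 was lowest in library group 5, at 1.44, and Sema6a in library group 6, at 4.84, against 5.65 and 9.09 or more elsewhere. Notch1, Hes1 and Jag1 were highest in library group 6, at 1.41, 1.21 and 2.24, against 0 for Notch1 and Hes1 in the other groups. Prrt1 was highest in library group 1 (0.0686), Avl9 in group 3 (0.433) and Ccnb2 in group 3 (4.995).

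In the Ccnd2-low class, library group 1 was highest for Jag1 (2.31), Kcna1 (7.29, against 2.43 at most elsewhere), Ccnb2 (1.06) and Rpl28 (2.56) and lowest for Nfia (10.3). Library group 2 was highest for Draxin (0.747), Pcnx (6.20), E2f3 (3.24) and Uhrf1 (2.45). Library group 3 was highest for Maml3 (1.70), group 4 for Gm9755 (0.642), and group 6 for Mcm2 (1.57) and Pbx3 (6.30).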

How the results depend on the processing

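edgeR called 0 genes between the classes under every alternative run, namely the replicate block, DESeq2 size factors, no filter, thinning to 1000000 counts, Ccnd2 at 1000 CPM or more, no Mki67 count, a threshold of 0.01, and leaving out each library group, library groups 3 and 4 together, the replication-rich cells (both added after seeing the data) or the cells with astroglial genes. DESeq2 on the sums called 749 genes and, against cycling cells, 789, where limma called 17. DESeq2 size factors moved the median log2 difference of all genes from 0.01 to 0.30, and the replicate block to -0.41. A Ccnd2-low class without any Ccnd2 count could not be used, since it held 0 cells. Keeping all cells, or only sums of at least 2 cells, gave the values reported. The cells per class and library group limit all values, with 2 Ccnd2-high cells in library groups 3 and 4.

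Deviations of the Ccnd2-high and Ccnd2-low sums of the same library group correlated with r between 0.01 and 0.04. For different library groups r lay between -0.07 and 0.06, with a median of -0.004. The replicate block changed no edgeR call in either comparison, but edgeR called 0 genes without it too. The calls therefore cannot show whether the library groups pair the classes. Between Ccnd2-high and Ccnd2-low sums, the replicate block lowered the common biological coefficient of variation from 191 to 169%. It also lowered the count at an unadjusted p below 0.05 from 338 to 258 genes.

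Of 58 named genes tested, 49 kept their sign in every alternative that gave them a value and 9 changed it. DESeq2 on the sums called 22 of the 58, and edgeR called 0. A gene had a value in 13 to 19 of 19 alternatives, and 33 genes in all 19, since fewer genes passed the filter with fewer cells. The alternative without a Mki67 count kept 8 Ccnd2-low cells and 8 Ccnd2-high cells, the latter from library groups 1, 2 and 6 only. There, log2 differences became -0.98 (Meis1), -0.54 (Sema6a), -0.86 (Neurod1), -1.96 (Zic4), -0.83 (Nfia) and -2.90 (Itgb1). With the replicate block they were -0.17 (Meis1), -0.022 (Sema6a), -0.036 (Neurod1), -0.17 (Zic4) and -1.04 (Itgb1). In limma, Sema6a was -0.082 and Zic4 -0.38. After thinning, Sema6a was -0.35 and Neurod1 -0.14, and without the filter Sema6a was -0.050. Without library groups 3 and 4, Sema6a was -0.25, Tubb3 0.022, Neurod1 -0.15 and Itgb1 -1.55. Without the replication-rich cells, Rbfox3 was 0.21 and Tubb3 0.41. With DESeq2, Tubb3 was 0.066 on the sums and 0.076 with its size factors. Leaving out each library group gave -1.50 to 0.057 for Pax6, -0.046 to 1.23 for Meis1, -0.88 to 0.41 for Rbfox3, -0.19 to 0.23 for Sema6a, -0.49 to 0.15 for Tubb3, -0.16 to 0.61 for Neurod1 and -0.056 to 1.75 for Zic4. The difference in total counts then ran from -85752 to 773654 counts, and was negative only without library group 4, and that in detected genes ran from 149 to 412 genes, highest without library group 3. The causes were not tested.

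The shares of higher members of the 11 lists were recomputed 110 times in all, and 22 of these shares were counted as differing from the reported one by about 1.5 times or more. Shares at 1.5 times were not treated alike. The GCP shares of 50% with the replicate block and without library group 2 (33.3% reported) were counted. The D cyclin shares of 40% with the replicate block and without library group 1 (60% reported) were not. The 22 shares belonged to the GCP (6), synapse (5), immediate early (4), migration (3), D cyclin (1), replication (1), transcription factor (1) and cytoskeleton (1) lists. Leaving out each library group gave 78.6 to 87.5% of replication genes and 72.2 to 84.0% of ribosomal protein genes higher, 28.6 to 66.7% of GCP genes, 38.9 to 70.0% of transcription factors, at most 47.1% of migration genes and at most 33.3% of synapse genes.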
